A study of Mus musculus with 2 samples.

Results

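The 10 genes followed here belong to the epithelial-mesenchymal transition (EMT). They were measured in 3D cultures grown from mouse mammary basal cells, alone or beside M2-like macrophages. The genes were picked by name from the count table: the transcription factors Snai1, Snai2, Twist1, Twist2, Zeb1 and Zeb2, the cadherins Cdh1 and Cdh2, the intermediate filament gene Vim and the matrix gene Fn1. All 10 have a row among the 49492 genes listed, and 9 passed the minimum of 10 reads for a test. Wild-type (WT) basal cells, gated as lin- CD24+ CD29hi, came from glands of adult female mice and grew in matrix-gel for 11 to 14 days, after which the RNA of the cultures was sequenced. The control culture (ctrl) had no macrophages, and the co-culture (M2) shared its medium with bone marrow-derived macrophages polarised with Il-4 and Il-13. A transwell membrane kept the macrophages apart from the gel, fresh macrophages were supplied during the culture, and the medium of the 3D culture held EGF and ITS, as the methods of the study describe. Each group is 1 library, so no difference given here has a replicate check, and how many mice were pooled is not given in the sources used here.

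EMT is the process by which epithelial cells loosen their junctions and take on properties of migrating mesenchymal cells. The Snail, Twist and Zeb factors bind E-box sequences in DNA, and the Snail and Zeb factors are known above all as repressors of the E-cadherin gene Cdh1. In the mammary gland, basal cells carry part of this programme already in the normal state: Snai2 marks the basal layer, and vimentin is found in basal cells beside their keratins.

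In the M2 library, Snai1 was 3.06-fold and Zeb2 2.11-fold higher than in ctrl, and these were the 2 members past the 2-fold threshold. No member was past it in the other direction. Fn1 was 1.78-fold and Vim 1.5-fold higher, and Cdh1 was 1.18-fold lower. Snai2, the factor with by far the most reads, was 1.24-fold higher. Called means at least 2-fold apart with an adjusted p under 0.05 in a two-sided exact binomial test, which compares the 2 libraries and not the conditions. By this rule 8.16% of all genes tested were called higher and 6.55% lower, against 2 and 0 of the 9 members tested. An adjusted p under 0.05 in this test, without the fold threshold, was reached by 53.1% of all genes tested and by 8 of the 9 members. With so few members these counts are a description and set the members apart from no other genes. Of the 9 members, 6 had more and 3 fewer reads in M2 after scaling. Their median log2 difference was 0.31, compared with -0.0032 for all 19233 genes tested, of which 49.7% had a positive value.

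The start regions of Snai1 and Zeb2, the called members, and of Vim, the effector whose window was searched, are shown for orientation. The windows are RefSeq sequences on GRCm38.p6, run 5′ to 3′ on the gene's own strand, and hold 250 bases before and 50 after an annotated start. Capitals mark the E-box CACCTG or CAGGTG, the form bound by Snail and Zeb factors, and the TATA box TATAAA or TTTATA. The letters of each pair are reverse complements, so both strands were searched, and no match of one motif overlaps one of the other. The Snai1 window (chr2:167537945-167538244, plus strand), the Zeb2 window (chr2:45113230-45113529, minus strand, 1 of 4 listed) and the Vim window (chr2:13574061-13574360, plus strand) read:
Snai1: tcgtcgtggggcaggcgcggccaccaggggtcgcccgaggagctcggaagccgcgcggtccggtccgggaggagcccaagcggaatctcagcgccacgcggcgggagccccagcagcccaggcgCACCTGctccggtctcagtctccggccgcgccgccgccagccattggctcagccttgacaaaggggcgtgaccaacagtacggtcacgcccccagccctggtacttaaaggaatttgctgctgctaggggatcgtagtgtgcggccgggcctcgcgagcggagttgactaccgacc
Zeb2: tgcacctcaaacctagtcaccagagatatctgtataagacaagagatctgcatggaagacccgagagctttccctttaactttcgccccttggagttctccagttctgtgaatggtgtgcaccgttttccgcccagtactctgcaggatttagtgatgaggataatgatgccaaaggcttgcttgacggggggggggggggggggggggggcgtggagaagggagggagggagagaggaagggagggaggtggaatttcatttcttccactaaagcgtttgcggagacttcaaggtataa
Vim: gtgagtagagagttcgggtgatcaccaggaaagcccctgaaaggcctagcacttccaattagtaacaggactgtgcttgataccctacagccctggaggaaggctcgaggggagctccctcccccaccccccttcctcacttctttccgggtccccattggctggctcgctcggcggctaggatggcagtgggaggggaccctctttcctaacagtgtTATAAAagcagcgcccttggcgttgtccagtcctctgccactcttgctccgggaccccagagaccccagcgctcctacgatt

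The Snai1 window holds the E-box once, at bases -126 to -121 from the start. Among 32851 windows of this length, 20.2% hold CACCTG or CAGGTG, so a match is common. The Vim window holds TATAAA at bases -32 to -27, a motif that 13.6% of all windows hold on either strand. No E-box of this form lies in the 4 windows listed for Zeb2 or in those of Twist1, Twist2 and Vim, and Twist1 has a TATA motif at bases -126 to -121. Windows of 5 of the 10 members were searched, and Snai2, Zeb1, Cdh1, Cdh2 and Fn1 were not. Member windows on chromosome 18, which holds Zeb1 and Cdh2, were left out of the search. A match of letters is a description of the window and does not show binding.

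The ctrl library held 26912610 reads in genes and the M2 library 29413844 reads, and the members took 0.229% and 0.308% of them. Fn1 alone had 31707 reads in ctrl and 59215 in M2, the most of the members in both libraries. Levels are given as reads per 1000000 reads of the scaled library (CPM), and as CPM per kilobase of exon (RPKM) where genes are compared with each other. Although the submitters' title speaks of a microarray, the deposited values are counts of sequenced reads. Keratin genes of basal cells had many reads in both libraries (Krt14 with 81991 and 68968, Krt5 with 56383 and 83619), as did the epithelial surface gene Epcam (20919 and 22821). Defining markers of the labelled epithelial cells were thus present in both. Basal cells were the starting material, but the study's flow cytometry of such cultures found mostly luminal cells in both groups. The basal share it reported was a minority, larger with M2 than in the control. How these shares bear on the levels of the members was not tested. Intervals are 95% intervals and cover counting error only.

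**Figure D1:**
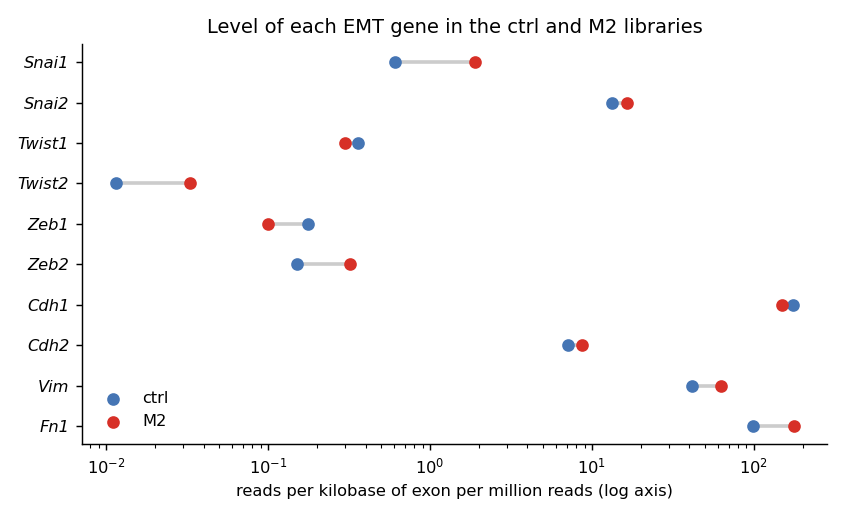
Level of the 10 EMT genes in the ctrl library (blue) and the M2 library (red), in RPKM on a log axis, with 1 point per library. Cdh1, Fn1 and Vim lie above 40 in both libraries, Snai2 and Cdh2 between 7 and 17, and the other 5 genes below 2.

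By level per length, the order in ctrl was Cdh1 (174 RPKM), Fn1 (98.8), Vim (41.6), Snai2 (13.3), Cdh2 (7.07), Snai1 (0.606), Twist1 (0.360), Zeb1 (0.176), Zeb2 (0.152) and Twist2 (0.0115). In M2 the order was Fn1 (176 RPKM), Cdh1 (148), Vim (62.4), Snai2 (16.5), Cdh2 (8.70), Snai1 (1.91), Zeb2 (0.322), Twist1 (0.301), Zeb1 (0.0995) and Twist2 (0.0328). Fn1 and Cdh1 held the top places in opposite order, and Zeb2 stood above Zeb1 and Twist1 in M2 but below them in ctrl. Neighbours in the order were compared by the ratio of their levels per length, with its counting interval. In ctrl the interval included 1 for Snai1 over Twist1 (ratio 1.68, 0.874 to 3.34) and for Zeb1 over Zeb2 (1.16, 0.801 to 1.68). In M2 it included 1 for Zeb2 over Twist1 (1.07, 0.622 to 2.0) and for Zeb1 over Twist2 (3.03, 0.941 to 15.6). For the other neighbours in each library the interval lay above 1, with Twist1 over Zeb1 in ctrl the closest to it (2.04, 1.08 to 3.65). The counted exon length of Zeb2 is 19942 bases, the longest of the 10, and its level per length depends on it.

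Among the Snail factors, Snai1 was the member with the largest difference. Snai1 (chromosome 2, 167538195 to 167542814) encodes a zinc-finger repressor that starts EMT in many settings. It had 27 reads in ctrl and 89 in M2, or 0.983 and 3.09 CPM. The log2 difference was 1.62 (95% interval 1.02 to 2.33; adjusted p = 8.79e-08, exact binomial test over all genes), and 4.75% of the genes tested had a higher value. The lower limit of the interval lies at 2.02-fold, above the threshold. With a biological coefficient of variation assumed at 0.2 in the exactTest of edgeR, Snai1 was still called (adjusted p = 0.0261), but at 0.4 it was not (adjusted p = 1).

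Snai2 (chromosome 16, 14705852 to 14709395), also called Slug, encodes the paralogous repressor that is abundant in mammary basal cells. It had 742 and 967 reads, or 27.0 CPM in ctrl and 33.6 CPM in M2. Its log2 difference of 0.31 (0.17 to 0.45) was not called, and 26.6% of all genes tested lay higher. Of the summed RPKM of the 6 factors, Snai2 made up 91.1% in ctrl and 86.1% in M2. The ratio of Snai1 to Snai2 reads was 0.0364 for the cells alone and 0.0920 for the co-culture, and it differed by 1.34 on the log2 scale (0.69 to 2.03). Snai2 had the larger level in both libraries.

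The Zeb factors differed with opposite signs. Zeb2 (chromosome 2, 44983632 to 45117395) encodes a zinc-finger homeobox repressor that is also active in myeloid and neural cells. It had 83 reads in ctrl and 185 in M2, or 3.02 and 6.42 CPM, a log2 difference of 1.08 (0.71 to 1.48; adjusted p = 1.90e-08, exact binomial test). The interval includes values under 2-fold. In the exactTest of edgeR the call was already lost at an assumed coefficient of variation of 0.2 (adjusted p = 0.151).

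Zeb1 (chromosome 18, 5591860 to 5775467), the paralog that is best known for silencing Cdh1, had 49 and 29 reads, or 1.78 and 1.01 CPM. Its log2 difference was -0.81 (-1.54 to -0.13), a value that 89.6% of the genes tested exceeded. The adjusted p of 0.0332 (exact binomial test) was under the threshold, but the difference was not 2-fold. The ratio of Zeb1 to Zeb2 reads was 0.590 in ctrl and 0.157 in M2, and differed by -1.91 on the log2 scale (-2.73 to -1.11). Per kilobase of exon the ratio was 1.16 and 0.309, so the order of the paralogs was not the same in the libraries, though the interval of their ratio in ctrl included 1. Genes that share exon positions with Zeb2 had few reads of their own, with 0 and 1 for the antisense gene Zeb2os and 2 and 8 for Mir5129. Gm10125 on the strand opposite to Zeb1 had 1 read in each library.

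Twist1 and Twist2, basic helix-loop-helix factors of mesoderm and mesenchyme, were close to the limit of detection. Twist1 (chromosome 12, 33957671 to 33959817) had 16 and 14 reads, or 0.582 and 0.486 CPM, and a log2 difference of -0.25 with a wide interval (-1.41 to 0.87). The interval spans 0 and reaches past 2-fold on the lower side, so a difference was not detectable at this depth (adjusted p = 0.799, exact binomial test). Twist2 (chromosome 1, 91801461 to 91848028) had 1 read in ctrl and 3 in M2. It was under the minimum of 10 reads for testing, and no fold is given since both counts are at or under 3 reads, the number that a count of 0 allows (0.109 CPM in ctrl and 0.104 CPM in M2).

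**Figure D2:**
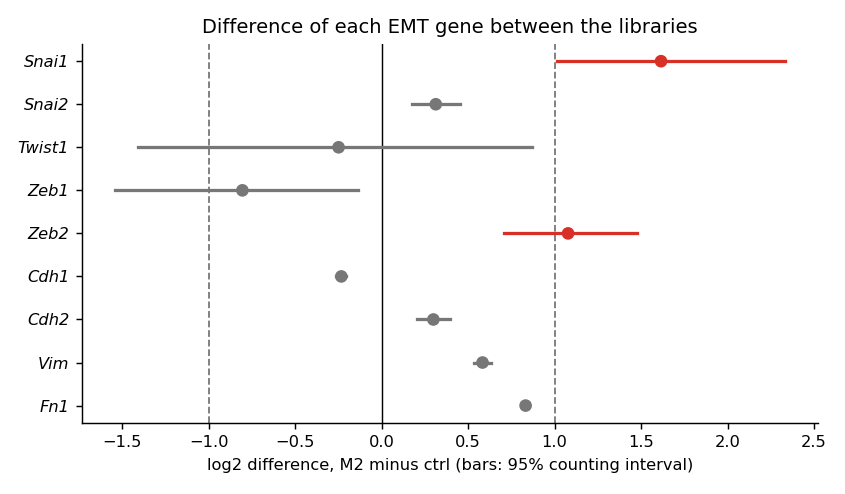
Log2 difference of the 9 EMT genes tested, M2 minus ctrl, with points for the estimate, bars for the 95% counting interval and dashed lines at 2-fold. Snai1 at 1.62 and Zeb2 at 1.08 are called (red), and Zeb1 at -0.81 and Twist1 at -0.25 have the widest bars among the genes not called (grey).

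The cadherins, which hold neighbouring cells together through calcium-dependent contacts, differed little. Cdh1 (chromosome 8, 106603351 to 106670246) encodes E-cadherin, the cadherin of epithelial junctions and the main target of the repressors above. It had 21903 reads in ctrl and 19537 in M2, or 797 and 678 CPM. The log2 difference of -0.23 (-0.26 to -0.21) was not called, and 69.3% of all genes tested had a higher value. Of all 49492 genes, Cdh1 ranked at place 241 in ctrl and 353 in M2 by level per length.

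Cdh2 (chromosome 18, 16588877 to 16809246) encodes N-cadherin, which typically replaces E-cadherin during EMT. It had 1567 and 2022 reads, or 57.0 and 70.2 CPM, and a log2 difference of 0.30 (0.20 to 0.39), with no call. For each Cdh2 read, Cdh1 had 14.0 reads without and 9.66 with macrophages, a log2 difference of the ratio of -0.53 (-0.63 to -0.43). Per kilobase of exon the ratio was 24.6 in ctrl and 17.0 in M2. E-cadherin transcripts thus outnumbered those of N-cadherin in both libraries.

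Both effectors of the mesenchymal side had more reads in M2 without reaching 2-fold. Vim (chromosome 2, 13573927 to 13582826) encodes vimentin, the intermediate filament of mesenchymal cells. It had 5425 reads in ctrl and 8525 in M2, or 197 and 296 CPM, a log2 difference of 0.58 (0.53 to 0.63), and 16.6% of all genes tested lay higher. The ratio of Vim to Cdh1 reads was 0.248 without and 0.436 with macrophages and differed by 0.82 on the log2 scale (0.76 to 0.87). Against Epcam, another epithelial gene, the ratio was 0.259 and 0.374, with a smaller log2 difference of 0.53 (0.47 to 0.58).

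Fn1 (chromosome 1, 71585520 to 71653200) encodes fibronectin, a matrix glycoprotein that cells bind through integrins. With 31707 reads in ctrl and 59215 in M2, or 1154 and 2055 CPM, it was the member with the most reads. Its log2 difference was 0.83 (0.81 to 0.85), and 11.8% of the genes tested had a higher value. Exons of Apol7d, on the opposite strand, overlap Fn1. Apol7d had 509 and 948 reads and the same log2 difference of 0.83, and since the use of strand is not given in the sources used here, reads of these genes cannot be told apart where they overlap.

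**Figure D3:**
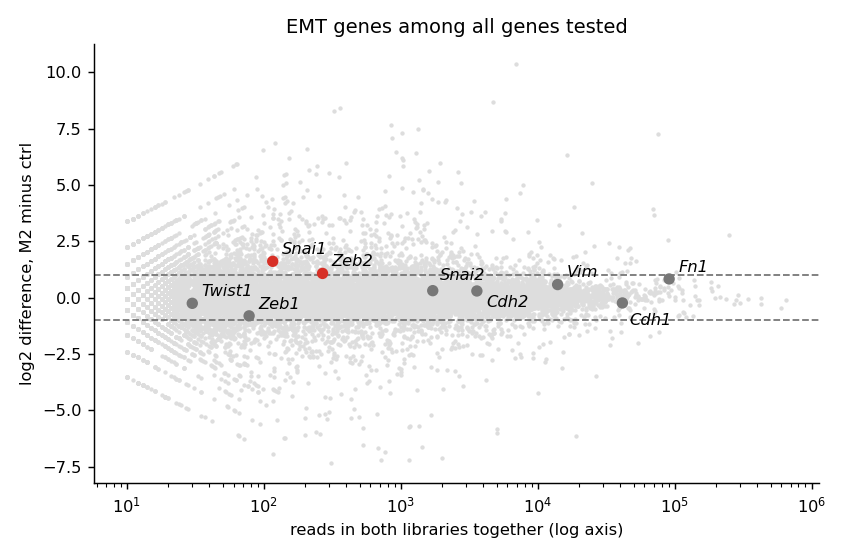
Log2 difference, M2 minus ctrl, against the reads of both libraries together (log axis) for all 19233 genes tested (light grey), with the 9 EMT genes named, dashed lines at 2-fold and called members in red. Snai1 (1.62) and Zeb2 (1.08) lie on the left, where genes with few reads scatter widely, and Fn1 (0.83), Vim (0.58) and Cdh1 (-0.23) on the right between the dashed lines.

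To place the members in their pathway, lists of related genes were described in the same way. The shares over all genes tested, 8.16% called higher and 6.55% lower, stand beside the calls of each list. With few genes in each list, these counts are a description. Of 14 other transcription factors linked to EMT, 13 were tested, 4 were called higher and 0 lower, with a median log2 difference of -0.01. Hmga2, a chromatin factor of embryonic and TGF-β stimulated cells, rose from 13 to 71 reads (log2 difference 2.29, 1.52 to 3.36). Snai3, a further Snail family member, had 3 and 14 reads (1.84, 0.31 to 4.59), and Foxc2 had 0 and 11 reads. Foxc2 and Snai3 reached the minimum of 10 reads only through M2, the library in which they are higher, so 2 of the 4 calls are no support for a direction of the list. The fourth was Fosl1 (1.24), an AP-1 subunit that is named here after its values were seen. The most abundant factors of the list, Sox4 (0.19), Sox9 (-0.33) and Tcf3 (-0.12), were not called.

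Of 14 genes listed as epithelial state factors, all tested, 2 were called lower and 0 higher. In this list 12 had negative values and 2 positive ones, and the median was -0.43. Among all genes tested, 6.55% were called lower and 49.7% had a positive value. Id3, an inhibitor of basic helix-loop-helix factors, fell from 543 to 183 reads (-1.63, -1.89 to -1.39). Grhl1, a grainyhead factor of epithelia, fell from 2277 to 852 reads (-1.49, -1.60 to -1.37). Ehf (-0.17), the splicing factor gene Esrp1 (-0.14) and Id2 (-0.54) were not called. The genes with positive values, named after these were seen, were Elf3, an epithelial Ets factor with 197 and 406 reads (0.97, 0.73 to 1.23), and Grhl2 (0.04), and neither was called.

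Cdh1 is anchored to actin through catenins. Of 11 catenins, linkers and other cadherins, 10 were tested, 0 were called higher and 1 lower, with a median of 0.14. The catenin genes Ctnnb1, Ctnnd1 and Ctnna1 had log2 differences of 0.10, 0.36 and 0.05. The gene called lower was Cdh5, the cadherin of endothelium, with 11 and 2 reads (-2.07, -5.74 to -0.33), which reached the minimum of 10 reads only through ctrl, where it is higher, so that this call supports no direction. Among 16 genes of tight junctions and the epithelial surface, 1 was called higher and 0 lower, with a median of -0.05. Tjp3, a tight junction scaffold, rose from 763 to 1716 reads (1.10, 0.98 to 1.23), while Epcam (0.06), the protease gene St14 (0.01) and Tjp1 (0.16) were not called.

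Other mesenchymal effectors went both ways. All 20 were tested, 5 were called higher and 4 lower, and the median was 0.02. Loxl2, a collagen cross-linking enzyme, rose from 139 to 929 reads (2.66), the hyaluronan receptor gene Cd44 from 10330 to 37200 (1.78) and Tnc, tenascin C, from 12433 to 39838 (1.61). Col3a1, a fibrillar collagen, fell from 1612 to 276 reads (-2.61). The actin-binding genes Cald1 (0.45) and Tagln (-0.05), which belong to contractile myoepithelium as well, were not called. Vim and Fn1, with 0.58 and 0.83, both lay above this list's median.

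For fibronectin, 12 genes of its receptors and their adhesion sites were tested, of which 2 were called higher and 1 lower, with a median of 0.06. Itga5, the α chain of the classical fibronectin receptor, rose from 790 to 1874 reads (1.18, 1.06 to 1.30). Its β chain Itgb1 had 27481 and 45655 reads (0.66) and was not called. Itgb6, a chain of an integrin that binds fibronectin and latent TGF-β, rose from 147 to 445 reads (1.52), and Tns1, an adhesion scaffold, fell from 2081 to 526 (-2.05). Sdc4 (-0.57) and Itga8 (-0.97) were not called. Relative to Itgb1 reads, Fn1 reads stood at 1.15 in ctrl and 1.30 in M2, and relative to Itga5 reads at 40.1 and 31.6.

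The TGF-β pathway is the best known inducer of Snail and Zeb genes. Of 14 ligands, receptors, Smads and modulators, 2 were called higher and 0 lower. In this list 6 had positive and 8 negative values, and the median was -0.05. Tgfbi, a matrix gene named for its induction by TGF-β, rose from 28 to 288 reads (3.25, 2.73 to 3.91), and Smad7, the inhibitory Smad, from 661 to 1445 reads (1.06, 0.93 to 1.19). The ligand gene Tgfb3 (-0.45) and the corepressor genes Skil (0.89) and Ski (-0.34) were not called. Nor were the receptor genes Tgfbr1 (-0.03), Tgfbr2 (-0.99) and Tgfbr3 (0.98), which are named after their values were seen. A TGF-β input to Snai1 or Zeb2 was not tested. Of 13 partner and turnover genes of the repressors, 0 were called in either direction, with a median of -0.10, and the most abundant were Gsk3b (-0.10), Sin3a (0.06) and Hdac2 (0.57).

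**Figure D4:**
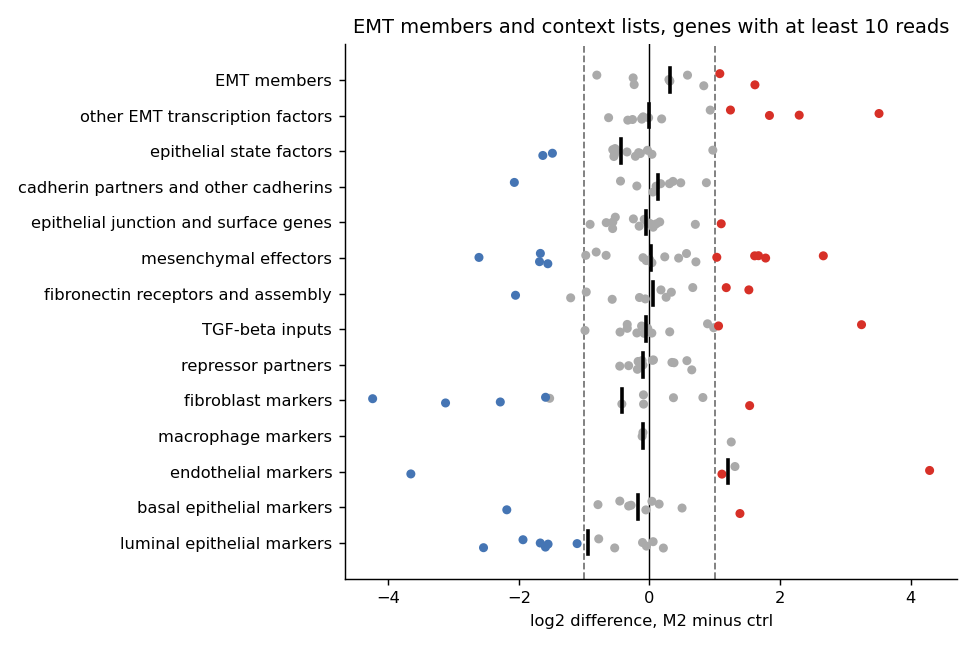
Log2 difference, M2 minus ctrl, of the EMT members and of 13 context lists, with a point for each gene with at least 10 reads (red called higher, blue called lower, grey not called), a black bar at each list's median and dashed lines at 2-fold. The median of the EMT members is 0.31, while those of other EMT transcription factors (-0.01) and mesenchymal effectors (0.02) lie near 0. Epithelial state factors (-0.43), fibroblast markers (-0.42) and luminal markers (-0.94) are among the lists with a median below 0. Mesenchymal effectors spread from -2.61 to 2.66.

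Vim, Fn1, Zeb2 and the Twist genes are also transcribed in stromal and blood cells, so markers of other cells were counted beside them. The sort before culture had excluded cells stained for CD45, CD31 or TER119, antigens of blood, endothelial and erythroid cells. In bulk RNA, fewer cells of a type and less RNA per cell cannot be told apart. Of 14 fibroblast markers, 11 were tested, 4 were called lower and 1 higher, and their summed level was 4152 CPM in ctrl and 3069 CPM in M2. Of these sums, Postn made up 2651 and 2491 CPM. Col6a3 (-4.24), Col14a1 (-3.12), Pdgfrb (-2.28) and Col5a2 (-1.59) fell, and Dcn rose from 51 to 157 reads (1.53). Fbln2 with 4786 and 8854 reads (0.82) and Pdgfra with 607 and 822 (0.37) had positive values without a call. Dcn, Fbln2 and Pdgfra are named after their values were seen. Postn had 72824 and 71795 reads, and Pi16 had 0 in both libraries. The part of fibroblasts in the values of Vim and Fn1 was not tested.

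Of 12 macrophage markers, 3 were tested and 0 were called. Their sum was 10.1 CPM in ctrl and 9.58 CPM in M2. Ptprc, Adgre1, Tyrobp, Fcer1g and Laptm5 had 0 reads in both libraries, Cd68 had 170 and 165 reads, Csf1r 94 and 92 and Itgam 3 and 9. At most 3 reads were found for 9 of the 12 markers in ctrl and 8 in M2. Cd68 and Csf1r gave most of the sum, and the part of macrophages in the values of Zeb2, Vim and Fn1 was not tested.

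Of 8 endothelial markers, 4 were tested, 2 were called higher and 1 lower, and the sum was 7.72 CPM in ctrl and 116 CPM in M2, with Flt1 rising from 158 to 3263 reads. The other endothelial genes had few reads: Pecam1 had 33 and 76, Vwf 4 and 12, Kdr 11 and 0, and Cldn5 had 0 in both. Kdr, the gene called lower, reached the minimum only through ctrl. Their part in the values of Vim, Fn1 and Zeb2 was not tested. The epithelial lineages also differed. Among 10 basal markers 1 was called higher (Krt17, 1.39) and 1 lower (Oxtr, -2.18), with a median of -0.17. Among 12 luminal markers 0 were called higher and 6 lower, with a median of -0.94, led by Pgr (-2.54), Esr1 (-1.94) and Kit (-1.67). The luminal markers with the most reads, Krt8 (0.21), Epcam (0.06) and Krt18 (-0.05), were not called, nor were the basal genes Krt14 (-0.32), Krt5 (0.50) and Myh11 (-0.06). How the balance of cell types bears on Cdh1, Snai1 or Vim was not tested.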

How the data were processed

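RNA-seq was analysed for 1 library of a culture grown from mammary basal cells alone and 1 library of such a culture grown with M2-like macrophages. Groups were taken from the treatment labels. The authors deposited a table of unnormalized counts, in reads per gene, with exon coordinates in the layout of featureCounts. Per the labels, a SMARTER mRNA kit was used for the libraries, and the submitters' processing notes name GRCm38 (mm10). The aligner, the annotation and the use of strand are not given in the sources used here. Gene ends of 8 of the 10 members were identical in GENCODE M21, and the other 2 overlapped the gene of that name.

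Members and lists were chosen with earlier results of these data known. Genes with at least 10 reads in both libraries together were tested. Library sizes were scaled by TMM in edgeR 4.0.16 under R 4.3.3 (factors 1.02 for ctrl and 0.980 for M2). The log2 difference used a pseudocount of 1 read. Reads were compared by a two-sided exact binomial test (scipy 1.17.1), p-values were adjusted by Benjamini-Hochberg over all genes tested, and calls needed an adjusted p under 0.05 and at least 2-fold. The quasi-likelihood test of edgeR needs replicates and was not fitted. Intervals are Clopper-Pearson for differences and for the ratios of neighbours within a library. For the log2 difference of a ratio between the libraries they are conditional exact. All are 95% intervals of counting error, and no molecular identifiers are stated, so reads may not be independent molecules. The functions were tested on simulated data. Named were all members and, of each list, the 3 genes with the most reads and up to 3 called genes with the largest difference. Alternatives were other scalings, filters, pseudocounts and thresholds, and the exactTest of edgeR with the biological coefficient of variation set to 0.2 or 0.4.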

Additional observations from a re-analysis of the deposited data

How the results depend on the processing

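The 9 members tested kept their direction under the 3 other scalings and the pseudocount of 0.5. The filters, the 4-fold threshold and the exactTest leave the log2 difference itself as it is, so they bear only on the calls. The 2 members called higher, Snai1 and Zeb2, stayed called under the other scalings (1.56 to 1.62 for Snai1 and 1.02 to 1.08 for Zeb2 on the log2 scale), a pseudocount of 0.5 and no filter beyond 1 read. With at least 1 CPM in each library 1 member was called, because Snai1 was no longer tested, and 797 genes were higher and 583 lower. At a 4-fold threshold 0 members, 616 genes higher and 494 lower were left. The exactTest of edgeR called 1 member, 964 genes higher and 691 lower at an assumed coefficient of variation of 0.2, and 0 members, 175 and 130 genes at 0.4. This variation cannot be estimated from 1 library per group. The Vim to Cdh1 change of 0.82 became 0.53 with Epcam in place of Cdh1, as Cdh1 and Epcam differed in direction. Ratios with 0.5 added to each count stayed within their intervals. Depth limits Twist1, Twist2 and Zeb1, which had at most 49 reads in a library, and also Snai1, which had 27 reads in ctrl. No paired analysis was possible because a pair of groups with 1 library each shares fewer than 2 replicate numbers.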
